A study of Ulva lactuca with 4 samples.

Results

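The transcriptome of Ulva lactuca thalli after 24 h of desiccation was set against that of thalli that had stayed submerged. Thalli of the first group were held at 20% moisture for 24 h, and those of the second, the control, were always under water. Each group is 1 RNA sequencing library, so 2 of the 4 libraries of the series entered the comparison. The remaining libraries, from thalli desiccated for 36 h and 72 h at the same moisture, served to scale the counts and to show the level of the same transcripts later. The labels give no strain, sex or generation for the thalli and do not say how many were pooled or when the control was taken relative to the treatment, so sampling time and desiccation cannot be told apart. Reads had been counted on 105451 contigs of a de novo assembly. Contigs with at least 50 scaled counts (reads divided by the size factor of their library) in at least 1 of the 2 libraries were kept, and these were 41478, or 39.3% of all contigs.

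Ulva lactuca, the sea lettuce, is a sheet-like green alga that lives between the tide marks, where it falls dry at low tide. Its thallus has no cuticle, stomata or roots to hold or replace water, so the cells dry with the air around them. Water loss concentrates the solutes of the cell, slows photosynthesis and favours reactive oxygen species, and intertidal algae are known for antioxidant and osmotic responses to it. The tables do not pair the contigs with genes, so no contig below is given a function or an organism, and the labelled tissue could not be checked against marker genes. Contigs are named by their assembly identifiers, in which a shared c and g number marks a cluster, possibly 1 gene read as several contigs. In bulk RNA of this kind, fewer cells of a type and less RNA per cell cannot be told apart.

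The 24 h library held 74243310 reads counted on contigs, against 52643595 in the control library, 1.41 times as many. Reads fell on 87832 contigs at 24 h and on 81547 in the control. At the read total of the control, the 24 h library would be expected to reach 85153 contigs by binomial thinning. Contigs that were kept took 99.4% of the reads of each of the 2 libraries. With 1 library a side no spread between samples could be measured and no p-value was computed. All intervals below are exact 95% intervals of counting error, which leave out both duplicate PCR reads and the variation between thalli.

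Under the scaling used, most contigs differed little between the libraries, and those that differed widely were close to evenly split in direction. Of the 41478 contigs kept, 25251 (60.9%) lay within 2-fold. The quartiles of the log2 ratio of 24 h to the control were -0.76 and 0.76, and the median was -0.01. Past 4-fold, 3591 contigs were higher at 24 h, or 8.66% of those kept, and 3277 were lower, or 7.9%, so that 16.6% in all were past 4-fold. A further 4612 contigs were 2- to 4-fold higher and 4747 were 2- to 4-fold lower. The 5th and 95th percentiles of the log2 ratio were -2.59 and 2.80, and the 1st and 99th were -5.16 and 6.40. For 2790 of the higher contigs (77.7%) and 2502 of the lower ones (76.4%) the whole interval of the ratio lay past 4-fold. The threshold passed through a dense region, since 344 contigs lay within 10% above it on the higher side and 401 within 10% short of it, with 339 and 385 on the lower side.

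Differences past 16-, 64- and 256-fold were more often on the higher side, and the direction past 1024-fold turned with the choices made. For contigs with 0 reads in 1 library the size of the difference depends on what stands in for the 0. For folds past 4, 3 reads were used, which is a chosen value and not a hard limit. On that footing 1110 contigs were past 16-fold higher at 24 h and 772 past 16-fold lower. Past 64-fold there were 331 higher and 218 lower, past 256-fold 101 and 67, and past 1024-fold 15 and 18. Upper-quartile scaling gave 16 and 15 past 1024-fold. With 1 added to each scaled count in place of the 3 reads, 512 were past 64-fold higher and 253 lower. Past 1024-fold that gave 41 higher and 20 lower, so the numbers are set in part by that choice. Contigs without reads in 1 library made up the surplus at 64-fold, since 153 of the 331 had 0 reads in the control and 17 of the 218 had 0 reads at 24 h. Among contigs with reads in both libraries, 178 were past 64-fold higher and 201 past 64-fold lower, and at 4-fold the numbers were 3199 and 3209. The balance near 4-fold also turned with the scaling: with library totals, which move all log2 ratios by -0.15, there were 3189 higher and 3724 lower contigs.

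**Figure D1:**
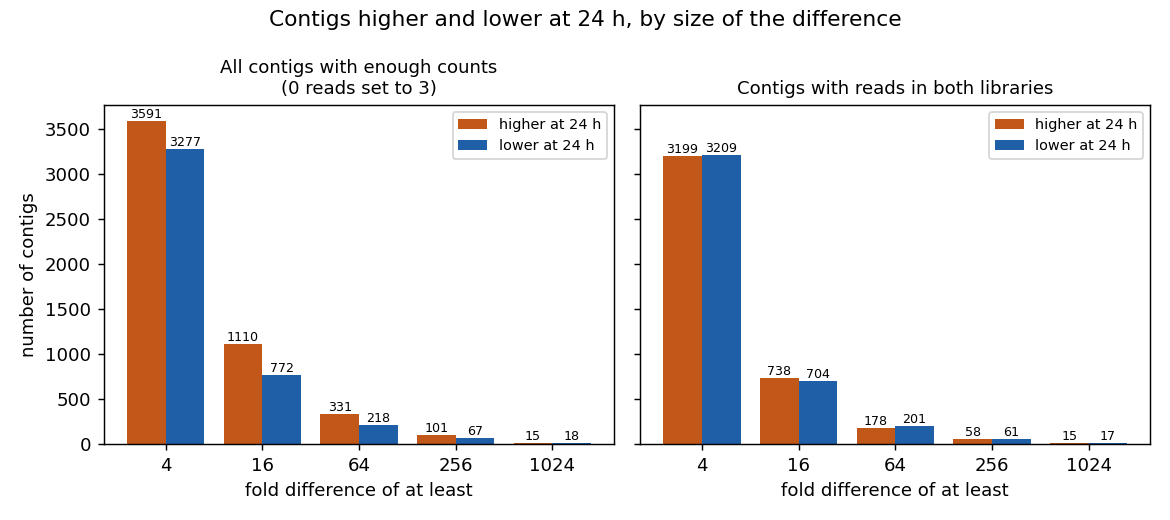
Number of contigs (vertical axis) at least 4-, 16-, 64-, 256- and 1024-fold higher (left bars) or lower (right bars) at 24 h than in the control, for all contigs with enough counts and 0 reads set to 3 (left panel) and for those with reads in both libraries (right panel). At 64-fold the left panel shows 331 higher and 218 lower contigs and the right panel 178 and 201.

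Contigs read at 24 h and not at all in the control numbered 392 among the 41478 kept, against 68 read in the control and not at 24 h. The 392 could meet the count minimum only through the 24 h library, and the 68 only through the control. The control library was the shallower one. With the 24 h library thinned to the total of the control, 91.9 of the kept contigs would be expected at 0 reads at 24 h. The count minimum was not applied again after thinning, and the part of depth in the 392 was not tested. The 392 contigs had a median of 167.5 reads at 24 h and at most 3808, and together took 0.207% of the reads of that library. With the control set to 3 reads, they were 14.9-fold to 997-fold higher at 24 h, with a median of 43.9, and these folds depend on that choice. The 68 contigs had a median of 75.5 reads in the control. With 24 h set to 3 reads, they were 19.9-fold to 1351-fold lower at 24 h. Of the 392, 6 were also without reads at both 36 h and 72 h. Of the 68 contigs unread at 24 h, 11 were unread at 36 h and 72 h as well.

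**Figure D2:**
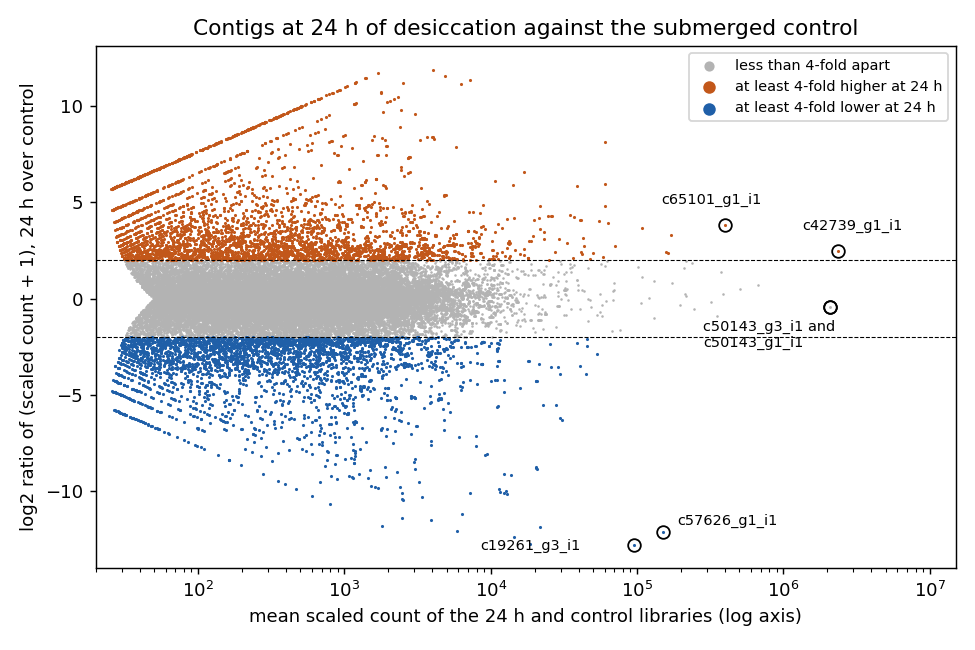
Each point is 1 of the 41478 contigs, with its mean scaled count over the 24 h and control libraries (horizontal log axis) and its log2 ratio of 24 h to the control after adding 1 (vertical axis). Dashed lines mark 4-fold, circles mark the named contigs, and the slanted rows of points at the upper and lower edge are contigs with 0 or few reads in 1 library.

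Among contigs with a mean of 50 scaled counts or more, which all met the count minimum, the share past 4-fold differed by level. In the band of 50 to 100 scaled counts, 11.5% of 4811 contigs were past 4-fold higher and 9.08% past 4-fold lower. Between 1000 and 5000 scaled counts the shares were lowest, at 5.79% and 5.75% of 11122 contigs. Above 20000 scaled counts they were 19.9% higher and 12.9% lower, among 186 contigs. Counting error narrowed over the same bands, with a median interval width of 1.09 on the log2 scale in the lowest of these bands, 0.21 between 1000 and 5000 and 0.05 in the highest. A further 2147 contigs had a mean under 50 and were kept through the library where they were high, so their ratios are wide by selection. Past 4-fold, the differences among the most abundant contigs were thus far wider than counting error, and the spread between thalli was not measured.

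Reads were gathered on fewer contigs at 24 h. It took 1381 contigs to hold 50% of the reads of the 24 h library and 2004 to do so in the control. The 100 most read contigs of each library took 30.1% of its reads at 24 h and 24.4% in the control. A single contig, c42739_g1_i1, carried much of this gap: without it, 1778 contigs held 50% of the reads at 24 h against 2091 in the control, and the top 100 took 25.6% against 23.5%. Of the top 100 of the 2 libraries, 46 contigs were in common. The top 100 of the 24 h library held 38 contigs past 4-fold higher and 0 past 4-fold lower, and the top 100 of the control held 5 and 28. Each list was picked on 1 of the libraries compared, which by itself favours that direction. Among the 100 contigs with the highest mean of both libraries, 26 were past 4-fold higher at 24 h, against 8.66% of all contigs kept, 8 were past 4-fold lower, against 7.9%, and 45 were within 2-fold. These 100 contigs lay in 86 clusters, and a mean can be high through 1 library alone, which favours wide differences.

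Divided by class of contig, most of the shift in reads lay between 2-fold and 16-fold. Contigs 2- to 4-fold higher at 24 h took 15.1% of its reads, against 6.0% of those of the control, and contigs 2- to 4-fold lower took 4.66% and 13.3%. Contigs 4- to 16-fold higher at 24 h took 17.5% of its reads, against 3.15% of those of the control, of which c42739_g1_i1 alone took 6.07% and 1.22%. The 1110 contigs at least 16-fold higher took 3.43% at 24 h and 0.119% in the control. On the other side, contigs 4- to 16-fold lower took 1.04% of the reads at 24 h and 7.35% in the control, and those at least 16-fold lower 0.0688% and 4.38%. The contigs within 2-fold held 57.6% of the reads at 24 h and 65.2% in the control. All 3591 contigs past 4-fold higher, with c42739_g1_i1 left out of both the set and the library totals, took 15.9% at 24 h and 2.08% in the control.

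**Figure D3:**
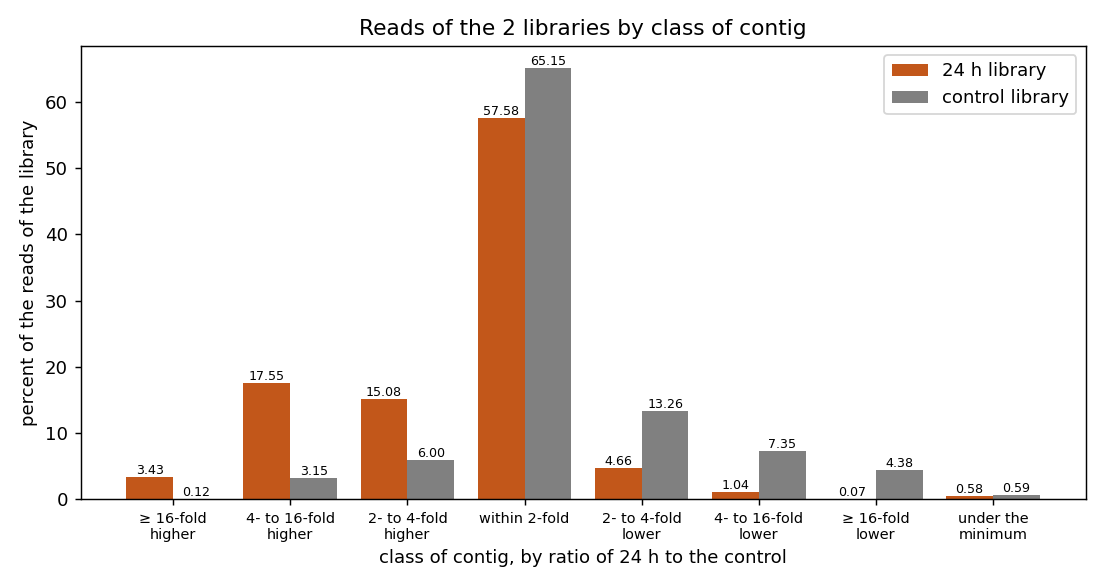
Percent of the reads of the 24 h library (left bars) and the control library (right bars) that fell on each class of contig, with the classes ordered by the ratio of 24 h to the control and the contigs under the count minimum last. Contigs 4- to 16-fold higher took 17.5% and 3.15%, and those at least 16-fold lower 0.0688% and 4.38%.

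Gains were concentrated on few contigs, and losses were so to a lesser degree. The gain is the sum over the higher contigs of scaled counts at 24 h minus those of the control, and the loss is the same sum over the lower contigs with its sign turned. The contig with the largest gain accounted for 27.5% of all gain, the first 2 for 33.3% and the first 10 for 44.8%. For losses the shares were smaller, with 4.81% on the first contig, 7.86% on the first 2 and 16.1% on the first 10. The first 100 contigs held 67.1% of the gain and 45.5% of the loss. With the first contig left out on either side, the next 10 held 24.99% of the remaining gain and 12.8% of the remaining loss.

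The contig c42739_g1_i1 gained most. It had 4504054 reads at 24 h and 641462 in the control, with 2893256 at 36 h and 733689 at 72 h. It was the most read contig of the 24 h library, at 6.07% of its reads, and the 4th of the control, at 1.22%. Its scaled count was 5.52-fold higher at 24 h than in the control (5.50 to 5.53), while it was 1.14-fold the control at 72 h. The contig c65101_g1_i1 came next, with 834981 reads at 24 h and 46827 in the control, and 272214 at 36 h and 67215 at 72 h. Its ratio of 24 h to the control was 14.0 (13.9 to 14.1), and that of 72 h to the control 1.43. For both contigs 24 h was the highest of the 4 libraries, 36 h the next, and 72 h lay within 2-fold of the control.

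The 2 contigs with the largest losses stayed far below the control in every desiccated library. The contig c57626_g1_i1 had 75 reads at 24 h and 265993 in the control, with 121 at 36 h and 31 at 72 h. It was the 10th most read contig of the control and was 4513-fold lower at 24 h (3600.4 to 5738). The contig c19261_g3_i1 had 30 reads at 24 h against 168708 in the control, and 44 and 31 at 36 h and 72 h. It was 7156-fold lower at 24 h (5013 to 10607). Both were abundant in the control library alone, and each desiccated library held 121 reads or fewer of either.

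The 10 contigs with the largest gains lay in 9 clusters, and so did the 10 with the largest losses, each with 1 pair of contigs of similar counts in every library. At 72 h, 6 of the 10 lay within 2-fold of the control and the other 4 were at least 4-fold above it. Counted by cluster, 5 of the 9 were within 2-fold. At 36 h, 3 of the 10, in 2 clusters, were within 2-fold and 5 at least 4-fold above. Of the 10 largest losses, none lay within 2-fold of the control at 72 h, where their scaled counts were between 3.91-fold and 8632-fold below it. At 36 h, 1 of the 10 was within 2-fold of the control and 8, in 7 clusters, were at least 4-fold below. Over all contigs with enough counts, 60.6% at 36 h and 53% at 72 h lay within 2-fold of the control, 7.37% and 16.2% were past 4-fold higher, and 6.64% and 5.93% past 4-fold lower. These ratios rest on 1 common control library, and an error in it shifts all of them. Ranking by difference picks gains with a high 24 h count and losses with a high control count. By itself this favours later counts below 24 h for gains and below the control for losses. The contigs past 64-fold were picked on their ratio at 24 h and cannot test this contrast between gains and losses. The higher set had a median of 1.13 scaled counts in the control. The control divides the 72 h ratio too, so a low value there raises both ratios. The lower set had a median of 5.33 scaled counts at 24 h, which do not enter its 72 h ratio. The log2 ratios were taken with 1 added to each scaled count. For the higher set their medians over the control were 8.34 at 24 h and 7.63 at 72 h. For the lower set they were -7.20 and -3.14.

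**Figure D4:**
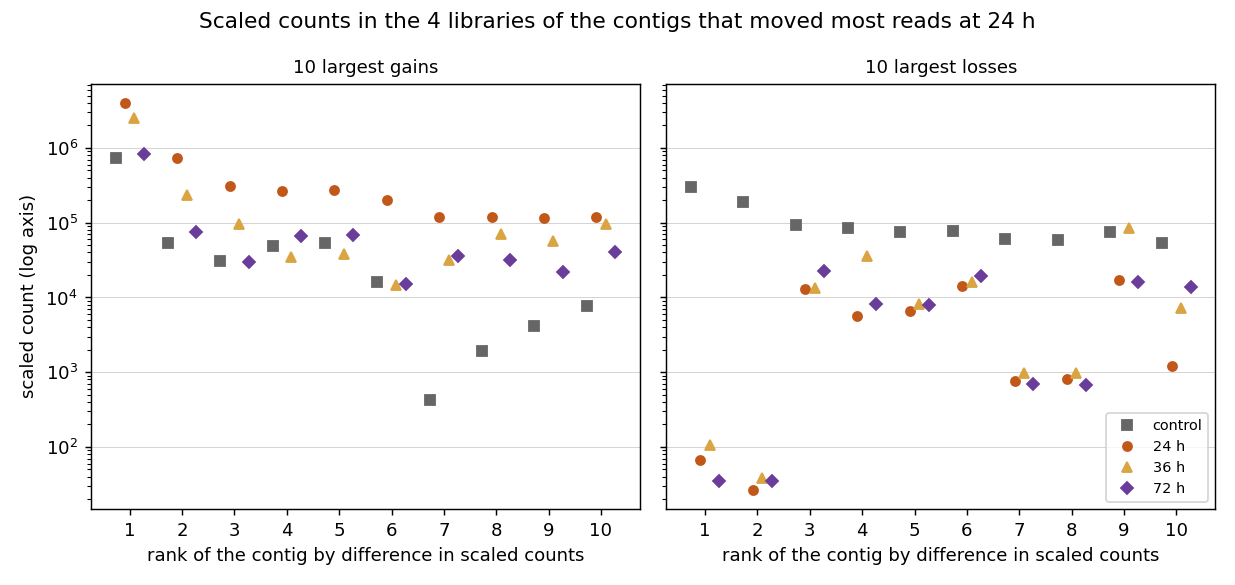
Scaled counts (vertical log axis) in the control, 24 h, 36 h and 72 h libraries of the 10 contigs with the largest gain (left panel) and the 10 with the largest loss (right panel) at 24 h, in order of rank and with the libraries set slightly apart. The 24 h points are the highest of each gain, and 6 of the 10 gains have 72 h points within 2-fold of the control.

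The contigs with the highest level within 2-fold were c50143_g3_i1 and c50143_g1_i1. The contig c50143_g3_i1 had 1992037 reads at 24 h and 2106547 in the control, and c50143_g1_i1 had 1992066 at 24 h and 2106522 in the control. Each took 2.68% of the reads at 24 h and 4.0% in the control. Their reads differed by at most 2% in every library, so they are best read as 1 observation, although the numbers of contigs and clusters include both. The scaled count of either was 1.35-fold lower at 24 h.

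As whole sets, the contigs higher at 24 h had a median of 35.0 scaled counts in the control, 423 at 24 h, 243 at 36 h and 267 at 72 h. As a log2 ratio over the control, this set had a median of 3.02 for 24 h, of 2.13 for 36 h and of 2.36 for 72 h. Contigs lower at 24 h had a median of 515 scaled counts in the control, 49.7 at 24 h, 127 at 36 h and 180 at 72 h, and their median log2 ratios were -2.94, -1.86 and -1.73. Among all contigs kept, the median log2 ratios were -0.01, -0.08 and -0.08. The sets were chosen on their ratio at 24 h, which by itself places the 24 h medians farthest from the control. With 0 reads set to 3, the 218 contigs past 64-fold lower had medians of 1520 scaled counts in the control, 5.33 at 24 h, 134 at 36 h and 190 at 72 h. The 331 past 64-fold higher had medians of 1.13, 653, 448 and 387 in the same order.

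**Figure D5:**
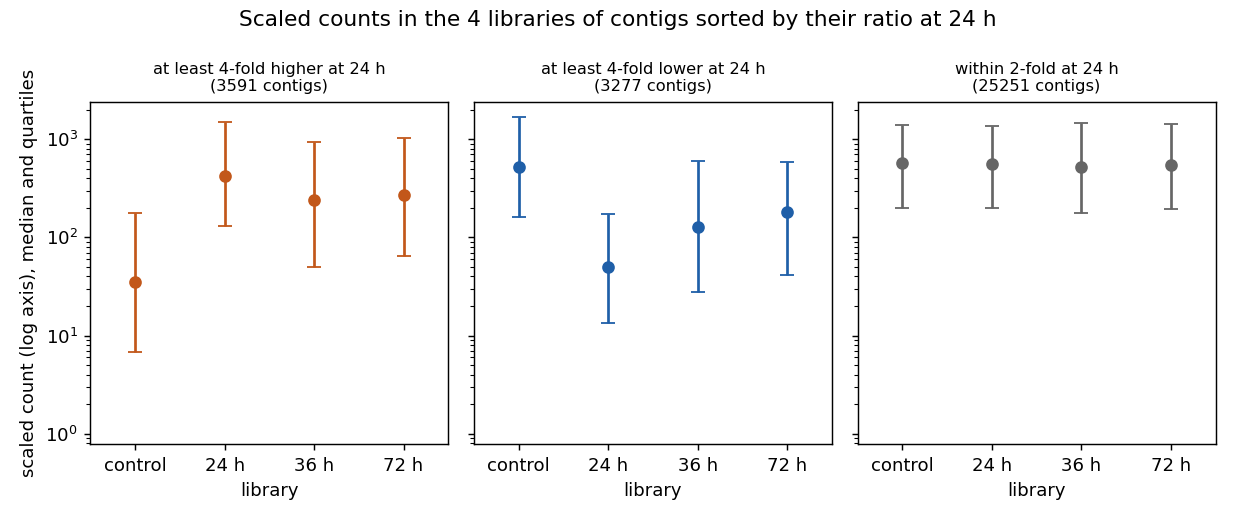
Median scaled count, with bars to the quartiles, in the control, 24 h, 36 h and 72 h libraries (log axis) for the 3591 contigs past 4-fold higher at 24 h, the 3277 past 4-fold lower and the 25251 within 2-fold. The higher set has medians of 35.0, 423, 243 and 267, and the set within 2-fold lies between 522 and 566 in each library.

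The differing contigs belonged to fewer clusters. The 3591 higher contigs lay in 1880 clusters and the 3277 lower ones in 1610, and 954 and 774 of them were the sole contig of their cluster. When the reads of each cluster were summed, 1687 of 13814 cluster sums (12.2%) were past 4-fold higher at 24 h and 1491 (10.8%) past 4-fold lower. Contigs of 1 cluster mostly had similar ratios: in the 7657 clusters with 2 or more kept contigs, the median range between the highest and lowest ratio was 0.22 on the log2 scale, or 1.17-fold, and 4.57% had a range of 2 or more. Where such a cluster held a higher contig, all of its kept contigs were higher in 510 of 842 cases (60.6%). For lower contigs this held in 504 of 787 cases (64.04%). Contigs of a cluster can share reads, so their likeness is not independent evidence.

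In 14 clusters at least 1 contig was 4-fold higher and another 4-fold lower. The sum of the cluster was at least 4-fold higher in 4 of them, at least 4-fold lower in 1, within 2-fold in 4 and between these limits in the other 5. The one with the most reads held 8 kept contigs. Its most read contig had 56258 reads at 24 h and 2212 in the control, a ratio of 20.0, and 4 more were 19.3-fold to 29.5-fold higher. In the same cluster a contig with 85 reads at 24 h and 469 in the control was 7.02-fold lower, another was 4.80-fold lower, and the last was 1.05-fold the control. The sources used here do not say how reads that match several contigs were assigned, and the part of that step in these opposite ratios was not tested.

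Differences of this size were more frequent between 24 h and the control than between 36 h and 24 h. At least 4-fold apart were 16.6% of contigs for 24 h over the control, 7.46% of 40776 for 36 h over 24 h and 17.6% of 44430 for 72 h over 24 h. No test of these differences was possible with 1 library per condition, and the comparisons share the 24 h library.

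In the authors' deposited table, 525 of 91893 contigs with an adjusted p-value (0.571%) had one under 0.05, of which 304 were higher and 221 lower at 24 h. Contigs with 0 reads in 1 library made up this surplus of higher calls, since 160 had 0 reads in the control and 16 had 0 reads at 24 h. No replicates stood behind these p-values. In the authors' deposited table none of the 10 largest gains and 1 of the 10 largest losses was so called. Of these, 7 of the gains and 4 of the losses had an adjusted p-value of 1. The adjusted p-values in the authors' deposited table were 1 for c42739_g1_i1 and for c65101_g1_i1, 0.176 for c57626_g1_i1 and 0.0258 for c19261_g3_i1. The smallest difference so called in the authors' deposited table was 40.7-fold for higher and 42.9-fold for lower contigs, on the ratios used here with 0 reads set to 3. Among contigs 64- to 256-fold apart, the authors' deposited table called 193 of 268 with a larger scaled count under 1000, 105 of 105 between 1000 and 10000, and 5 of 8 above 10000.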

How the data were processed

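A commercial plant kit was used to extract RNA and a TruSeq-type kit to build libraries, per the labels. The series' design text says that these are libraries of an earlier series, set against another assembly. Tools named in the submitters' processing notes are cutadapt, Bowtie2 and DESeq. The sources used here give neither versions, settings and assembler nor the treatment of reads that match several contigs. The values the authors deposited are raw read counts for each contig and library. The deposited scaled values are a signal, counts divided by a size factor per library, per the file headers and values. The authors' fold change is a linear ratio of these. Their p-value for each contig, raw and adjusted, was deposited as well.

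Scaling used size factors from the median of ratios over the 4 libraries, 1.13 for 24 h and 0.885 for the control, computed over 70998 contigs read in every library. The 6 repeated count columns were identical in 6 of 6 cases. The log2 ratio of (scaled count + 1) at 24 h to that in the control was taken. Contigs with 50 scaled counts in 1 of the 2 libraries were kept, and 4-fold was the rule of size. For folds past 4, counts of 0 were set to 3 reads, a choice made after seeing the data. Ratios of named contigs have nothing added and carry exact Clopper-Pearson 95% intervals. With 1 library per condition there are no residual degrees of freedom and no test was run. Contigs were named by rule: the 2 higher and 2 lower with the largest difference in scaled counts, and the 2 within 2-fold with the highest mean. Members, rules and alternatives were chosen with earlier results of these data known. The calculation was tested on simulated Poisson counts without spread between samples, with changes planted only in contigs of at least 200 mean scaled counts. It thus did not test variation between thalli or changes near the count minimum. Alternatives covered the count minimum, pseudocount, scaling, threshold, contigs with 0 reads, the interval of the ratio and the authors' fold change. Keeping 1 contig per near-identical set and the removal of c42739_g1_i1 were added after seeing the data. Python 3.11.15, numpy 2.4.6, pandas 2.3.3, scipy 1.17.1, R 4.3.3 and edgeR 4.0.16 (for TMM factors) were used.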

Additional observations from a re-analysis of the deposited data

How the results depend on the processing

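No paired analysis was possible because each condition has 1 library. For the same reason no library could be left out. The 3591 contigs higher and 3277 lower at 24 h, and the 1687 and 1491 cluster sums, moved by over 1.5 times with the count minimum and the threshold, by construction. A minimum of 10 scaled counts gave 6298 higher and 5276 lower contigs and 4016 and 3207 clusters. Without a minimum there were 10029 and 7289 contigs and 7592 and 5150 clusters. A minimum of 200 gave 2369 higher contigs, and 958 and 905 clusters. A threshold of 2-fold gave 8203 and 8024 contigs and 3267 and 3097 clusters, and 8-fold gave 1813 and 1564 contigs and 966 and 781 clusters. The other 41 of 64 recomputed values stayed within 1.5 times, or for the percent within 2-fold inside its counting interval. The percent of contigs within 2-fold was 60.9 and went to 56.6 and 62.8 with a minimum of 10 and 200, to 61.7 with a pseudocount of 5 and to 60.1 with library totals. Higher contigs outnumbered lower ones except with library totals (3189 against 3724, and 1528 against 1658 clusters) and without contigs of 0 reads (3199 against 3209). Over the planned settings, contigs past 4-fold higher took 19.5% to 22.2% of the reads at 24 h and 2.88% to 3.61% in the control, and those lower 1.01% to 1.34% and 11.3% to 12.7%. Keeping 1 contig per near-identical set, chosen after seeing the data, gave 3385 higher and 3091 lower. Depth limits the contigs near the minimum, and the absence of replicates limits all of them.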

Other observations

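Many contigs had a close double. Of the 41478 contigs kept, 8240 (19.9%) had another contig with the same c number whose reads differed by at most 2% in each of the 4 libraries. Among the contigs at least 4-fold higher at 24 h this held for 348 (9.69%), and among those at least 4-fold lower for 308 (9.40%). The higher set had a median of 35.0 scaled counts in the control, and the lower set of 49.7 at 24 h. Among all contigs kept, these medians were 446 in the control and 431 at 24 h. At low counts a limit of 2% leaves little or no room for a difference in reads. The smaller shares therefore cannot be read as fewer doubles among the differing contigs. The most read pair, c50143_g3_i1 and c50143_g1_i1, had 1992037 and 1992066 reads at 24 h and 2106547 and 2106522 in the control.

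Some clusters with the same c number and another g number differed in their ratio of 24 h to the control. Of 1270 c numbers with 2 or more cluster sums of enough counts, 308 held sums with ratios at least 4-fold apart. In 40 they were at least 64-fold apart with 1 added to each scaled count. Of all cluster sums, 12.2% were past 4-fold higher and 10.8% past 4-fold lower. The share as far apart among clusters of different c numbers was not computed. The 308 are therefore not shown to be particular to a shared c number. While c19261_g3_i1 had 30 reads at 24 h and 168708 in the control, c19261_g1_i1, singled out after its values were seen, had 671650 reads at 24 h and 365528 in the control. The scaled count of c19261_g1_i1 was 1.44-fold higher at 24 h (1.44 to 1.45), and it was the 6th most read contig of the 24 h library and the 7th of the control. At 36 h and 72 h its reads were 1072340 and 334135.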
